A study of Arabidopsis thaliana with 12 samples.

Results

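The line S82-2 was compared with aba3-1, its abscisic acid (ABA) deficient Arabidopsis thaliana parent, on 4 of the 12 ATH1 arrays of a study of suppressor mutants of aba3-1. The members were the 2 arrays labelled S82-2 and the 2 labelled aba3-1, set against each other within replicate numbers (S82-2 replicate 1 with aba3-1 replicate 1, S82-2 replicate 2 with aba3-1 replicate 2). The other 8 arrays hold 2 replicates each of the lines S14-150, S15-118 and S58-2 and of wild type (wt). The labels give a name per sample and no genotype, so S82-2 is taken as a suppressor line from the series as a whole. A suppressor line by its meaning still carries the aba3-1 mutation, together with a further mutation that the labels do not name. All plants were untreated, grew on compost at 21 °C with 8 h of light and 16 h of dark, and were sampled as aerial tissue, per the labels. Extracted RNA was 10 and 12.1 µg for S82-2 and 12.4 and 12 µg for aba3-1, and each labelling used 20 µg of amplified RNA. S82-2 is represented by 1 line, so its suppressor mutation and any other difference of that line from aba3-1 cannot be told apart.

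ABA is the hormone that closes stomata under drought and switches on genes for desiccation and cold tolerance. ABA3 encodes the sulfurase that completes the molybdenum cofactor of aldehyde oxidases, one of which makes ABA in the last step of its synthesis, so aba3 mutants hold little ABA, lose water and wilt easily. ABA also interacts with the salicylic acid, jasmonate and ethylene pathways of defence against pathogens, and ABA-deficient plants are known for altered defence. No probe set is assigned to ABA3 in the tables used, and the gene is not analysed here, so the arrays give no check of the parent mutation.

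Values are log2 signals of probe sets, so a difference of 1 is a 2-fold change (with the unstated log base taken as 2). Of 22746 probe sets that are not controls, 11561 were above 4 in at least 2 of the 12 arrays and were tested. Differences come with the standard error (SE) of a limma fit over all 12 arrays with the replicate number as a block, and a probe set was called at a Benjamini-Hochberg adjusted p under 0.05. Whether replicates came from separate plants is not stated in the labels, and the p-values cover no more than the spread of these samples, possibly a technical one. The median signal per array lay between 3.58 and 3.73. The arrays of 1 replicate number were more alike than those of 1 group: r across probe sets was 0.954 between the arrays of replicate 1 and 0.971 between those of replicate 2, while it was 0.933 between both S82-2 arrays and 0.929 between both aba3-1 arrays. As a check of the tissue, all 9 photosynthesis genes with a probe set were high on the 4 arrays, at 11.1 to 13.4. Of 2 genes for guard cell formation, SPCH and FAMA, neither passed 3.74 on any of the 4 arrays. Whole aerial tissue was measured, in which fewer cells of a type and less RNA per cell cannot be told apart.

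More probe sets were lower than higher in S82-2 than in aba3-1, and most of them have no gene or only a locus in the tables used, so the functions described below are those of a minority. A chitinase (CHI), plant defensins (PDF1.2, PDF1.2b), the transcription factor WRKY53 and the kinase BIK1 were among those that fell. COR15A, COR15B, COR47 and the wax synthase WSD1 rose. In all, 677 of the 11561 probe sets were called (5.86%), of which 496 were lower in S82-2 (4.29%) and 181 higher (1.57%). The lower probe sets had a median difference of -1.27, which is 2.41-fold, and the higher ones a median of 0.92, while the median over all tested was 0.01. In 188 of the lower probe sets the S82-2 mean was under 4, where signals lie near background and a fold is not exact. Differences of at least 1 were found in 337 of the lower and 72 of the higher probe sets, and differences of at least 2 in 103 of the lower and 4 of the higher ones. All 677 had the same sign in both replicate numbers, as had 68.6% of all probe sets tested. In 575 of them the arrays of S82-2 and aba3-1 did not overlap, as in 34.3% of all tested. The calls were made from these same arrays, which favours equal signs and no overlap, so neither count is read as replication.

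**Figure D1:**
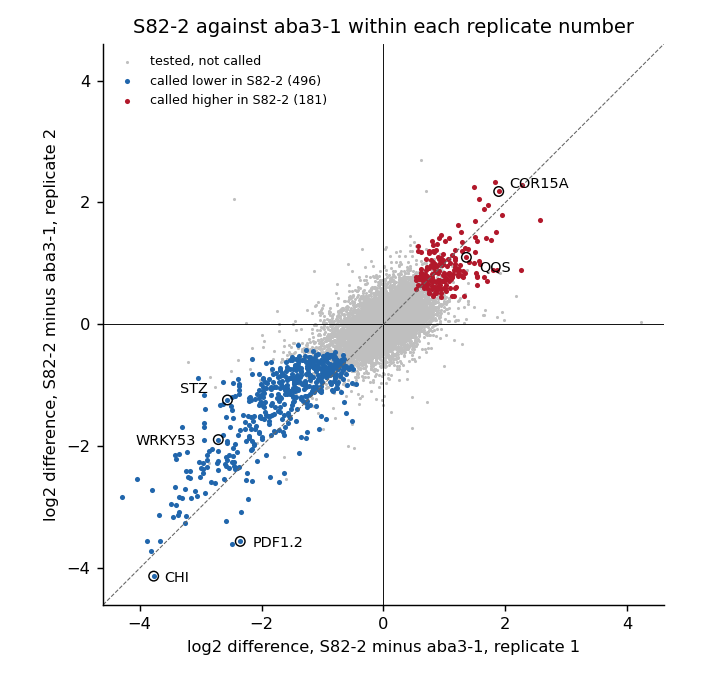
Each point is a probe set, with its log2 difference S82-2 minus aba3-1 in replicate 1 on the x axis and in replicate 2 on the y axis; blue points were called lower in S82-2 (496), red points higher (181) and grey points were not called, and the dashed line marks equal differences. The called probe sets lie in the lower left and upper right quadrants, with CHI near -4 in both numbers and COR15A near 2.

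The number of calls rested on the replicate block and on every array. Without the S58-2 arrays it called 1001, and the higher ones among them grew to 336, beside 665 lower. Without the block the same contrast called 58 probe sets (0.502%), 5 higher and 53 lower, and all 58 were among the 677. With the block kept, it called 148 without S82-2 replicate 1, 293 without S82-2 replicate 2, 125 without aba3-1 replicate 1 and 420 without aba3-1 replicate 2.

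Among the called probe sets, 319 are paired with 1 gene, 10 with several and 348 with none, and 57 carry a gene symbol (of 926 tested with a symbol). Of these 57 genes, 41 were lower and 16 higher in S82-2. They were sorted by function into 8 groups after their values had been seen, and only called genes were sorted, so the groups order the description and their counts support nothing. PDF1.2, SAL2, RING1 and WRKY53 were also called without the block. For the other 53 the adjusted p without it lay between 0.0580 and 1.00, and this covers all genes of the groups below but those 4. Below, array values are given for replicate 1 and then replicate 2.

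Antimicrobial and immune proteins made up 12 of the 57 genes, with 11 lower in S82-2 and 1 higher, the thionin THI2.2 described below. The chitinase CHI (AT2G43570), an enzyme that cuts the chitin of fungal walls, read 4.68 and 3.01 in S82-2, against 8.45 and 7.14 in aba3-1. This was the lowest difference of all called probe sets, at -3.95 (SE 0.30, limma adjusted p = 0.000158), with an S82-2 mean under the floor of 4. Wild type read 4.33 and 3.0 and so lay close to S82-2. PDF1.2 (AT5G44420), a defensin that marks the jasmonate and ethylene branch of defence, read 4.82 and 4.23 in S82-2, against 7.17 and 7.79 in aba3-1. Its difference was -2.96 (SE 0.42, limma adjusted p = 0.00307), and the groups were far apart in both numbers. PDF1.2b, a near copy of PDF1.2, differed by -3.04, but its probe set is of a kind that can bind related transcripts, so the 2 genes may share signal.

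WRKY53 (AT4G23810), a transcription factor of senescence and salicylic acid responses, read 3.05 and 3.11 in S82-2, against 5.76 and 5.0 in aba3-1. It thus stood under 4 in S82-2, near the low end of the signal range, and fell by 2.3 (SE 0.29, limma adjusted p = 0.00161). RING1 (AT5G10380), a ubiquitin ligase of the RING type that promotes pathogen-triggered cell death, read 6.88 and 6.49 in S82-2, against 9.03 and 9.06 in aba3-1, a difference of -2.36 (SE 0.22). Its S82-2 values lay below those of wt, at 7.23 and 7.78. BIK1 (AT2G39660), a kinase that acts beneath receptors for microbial patterns, read 3.80 and 4.67 in S82-2, against 5.40 and 5.43 in aba3-1. Its difference was -1.60 in replicate 1 and -0.76 in replicate 2, with a fitted -1.18 (SE 0.25).

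SAG101 (AT5G14930), a partner of EDS1 in immune signalling, read 3.88 and 3.86 in S82-2, against 5.04 and 4.44 in aba3-1. SBT3.3 (AT1G32960), a subtilase linked to immune priming, read 2.73 and 3.10 in S82-2, against 3.94 and 4.42 in aba3-1. SGT1A, a cochaperone of intracellular immune receptors, fell by 0.85 (SE 0.17). PUB24, a ubiquitin ligase of the U-box type that dampens responses to microbial patterns, fell as well, by 1.28 (SE 0.27), and so did SIZ1, a SUMO ligase known as a brake on salicylic acid defence, by 0.67 (SE 0.15).

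**Figure D2:**
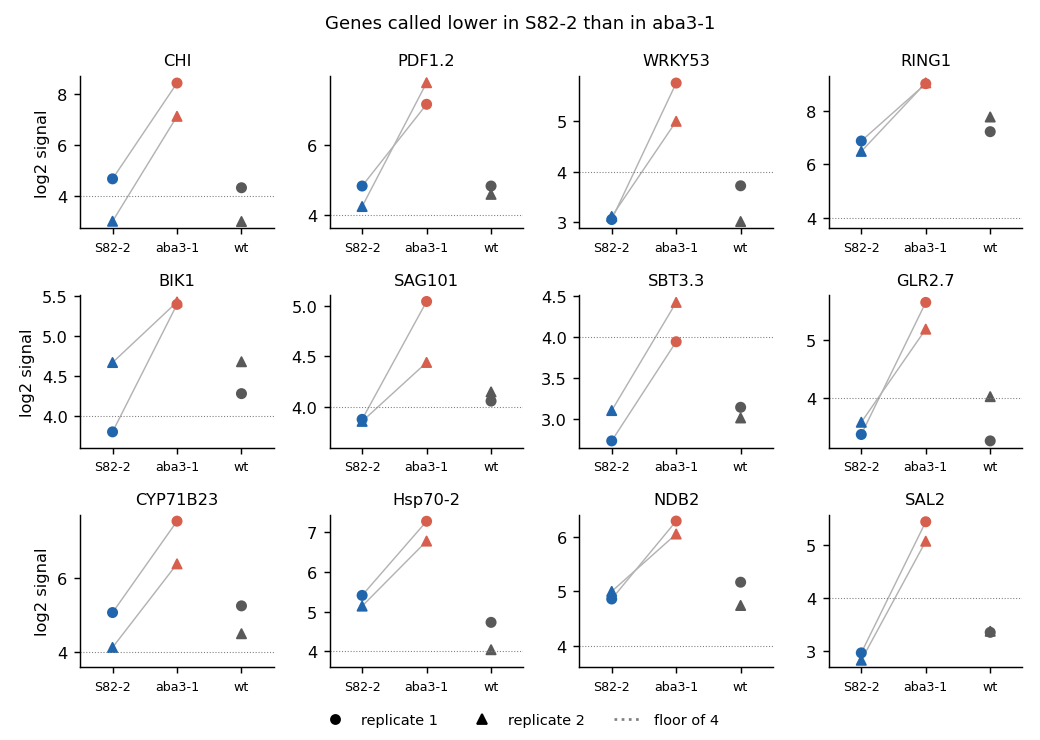
Log2 signal of 12 genes called lower in S82-2, by group on the x axis (S82-2, aba3-1, wt), with circles for replicate 1, triangles for replicate 2, grey lines joining S82-2 and aba3-1 of 1 number and a dotted line at the floor of 4. In every panel both lines run upward to aba3-1, and CHI shows the largest step, with 4.68 and 3.01 in S82-2 and 8.45 and 7.14 in aba3-1.

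Calcium and membrane signalling genes gave 5 calls, all lower. GLR2.7 (AT2G29120), a glutamate receptor-like channel, read 3.37 and 3.58 in S82-2, against 5.64 and 5.18 in aba3-1, a difference of -1.94 (SE 0.27, limma adjusted p = 0.00289). GLR1.4, of the same family, was low in both groups, at 3.02 and 3.03 in S82-2 and 3.78 and 3.62 in aba3-1. TET8 (AT2G23810), a tetraspanin of extracellular vesicles, read 7.06 and 7.0 in S82-2, against 8.29 and 8.01 in aba3-1. It is the only member of this group whose levels stayed above 6 throughout. CML42, a calmodulin-like calcium sensor, fell by 0.96 (SE 0.24) and lies close to the threshold, with a limma adjusted p of 0.0482. ACA.l differed by -1.91 in replicate 1 and by -0.96 in replicate 2.

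Enzymes of secondary metabolism and conjugation gave 4 lower genes and 1 higher. CYP71B23 (AT3G26210), a cytochrome P450, read 5.07 and 4.13 in S82-2, against 7.53 and 6.38 in aba3-1, a difference of -2.36 (SE 0.24, limma adjusted p = 0.000520). CYP71B24 and CYP71B36 of the same subfamily fell by 0.95 (SE 0.20) and 1.09 (SE 0.19). The list of cytochromes P450, found by a search of gene symbols and synonyms, had 10 tested members and need not hold the whole family. These 3 were lower, beside 4.29% of all probe sets, none was higher and the median was -0.11. UGT87A2, a UDP-glycosyltransferase, read 5.16 and 4.69 in S82-2, against 6.73 and 6.15 in aba3-1. UGT76C2 (AT5G05860), which glucosylates cytokinins, went the other way, with 5.0 and 5.40 in S82-2 and 4.09 and 4.53 in aba3-1. Of the 18 tested UDP-glycosyltransferases found by the same kind of search these were the only called members, 1 in each direction, beside a median of 0.09. The shares over all probe sets were 1.57% higher and 4.29% lower.

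Chaperones and proteins of the secretory pathway gave 4 lower genes and 1 higher. Hsp70-2 (AT5G02490), a cytosolic heat shock chaperone, read 5.41 and 5.14 in S82-2, against 7.28 and 6.78 in aba3-1. Its difference was -1.76 (SE 0.22, limma adjusted p = 0.00149), and S82-2 lay between aba3-1 and wt, which read 4.73 and 4.04. ATERDJ3B, a cochaperone of the endoplasmic reticulum, read 7.74 and 6.91 in S82-2, against 8.95 and 7.44 in aba3-1. SPP, the signal peptide peptidase, fell by 0.80 (SE 0.20), and ENGase85A, which trims N-glycans, by 1.5 (SE 0.24). PRA1.F1, a prenylated Rab acceptor, was the higher one, by 0.90 (SE 0.17).

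Cell wall and extracellular proteins gave 5 lower genes and 2 higher. The lower ones include the 3 tested genes of the list of pectin enzymes (4.29% of all probe sets were called lower), ATPMEPCRB, PMEPCRF and PME61, which are pectin methylesterases that change the charge of wall pectin. Without the block their adjusted p was 0.393, 0.949 and 0.855, so none kept its call. ATPMEPCRB (AT4G02330) read 3.73 and 3.16 in S82-2, against 5.78 and 4.24 in aba3-1, and differed by -2.05 in replicate 1 and -1.08 in replicate 2. PME61 (AT3G59010) read 4.87 and 4.46 in S82-2, against 5.97 and 4.96 in aba3-1 and 5.94 and 5.10 in wt, so that here S82-2 stood apart and aba3-1 read much as wt. EXO, a wall-associated protein of brassinosteroid-promoted growth, fell by 1.22 (SE 0.19). GH9B8, of the endoglucanase family, was higher by 1.12 (SE 0.21), and SAH7 by 0.84 (SE 0.16). Expansins and xyloglucan endotransglucosylases, which loosen the wall during growth, had no call among 7 tested genes, with a median of 0.22. The highest difference of that list, in EXPB1, was 0.94 (limma adjusted p = 0.0719).

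Carbon and energy metabolism gave 6 lower genes and 3 higher. NDB2 (AT4G05020), an external NADH dehydrogenase of the alternative respiratory chain, read 4.86 and 5.0 in S82-2, against 6.30 and 6.06 in aba3-1. PPDK, which links pyruvate and phosphoenolpyruvate, read 6.36 and 6.80 in S82-2, against 7.52 and 7.50 in aba3-1. Of the subunit genes of the NAD-dependent isocitrate dehydrogenase, the called ones with a symbol were IDH-V and IDH-VI. IDH-V was lower by 0.69 (SE 0.16), IDH-VI by 0.69 (SE 0.16) and ACLA-3, a subunit of ATP-citrate lyase, by 0.64 (SE 0.16). DPL1, a sphingosine phosphate lyase, fell by 0.96 (SE 0.19). The higher genes were MGL (AT1G64660), the methionine gamma-lyase, with 5.01 and 4.6 in S82-2 and 3.14 and 3.71 in aba3-1, together with BGLU47, a beta-glucosidase, and CYTC6A, a cytochrome of the chloroplast.

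**Figure D3:**
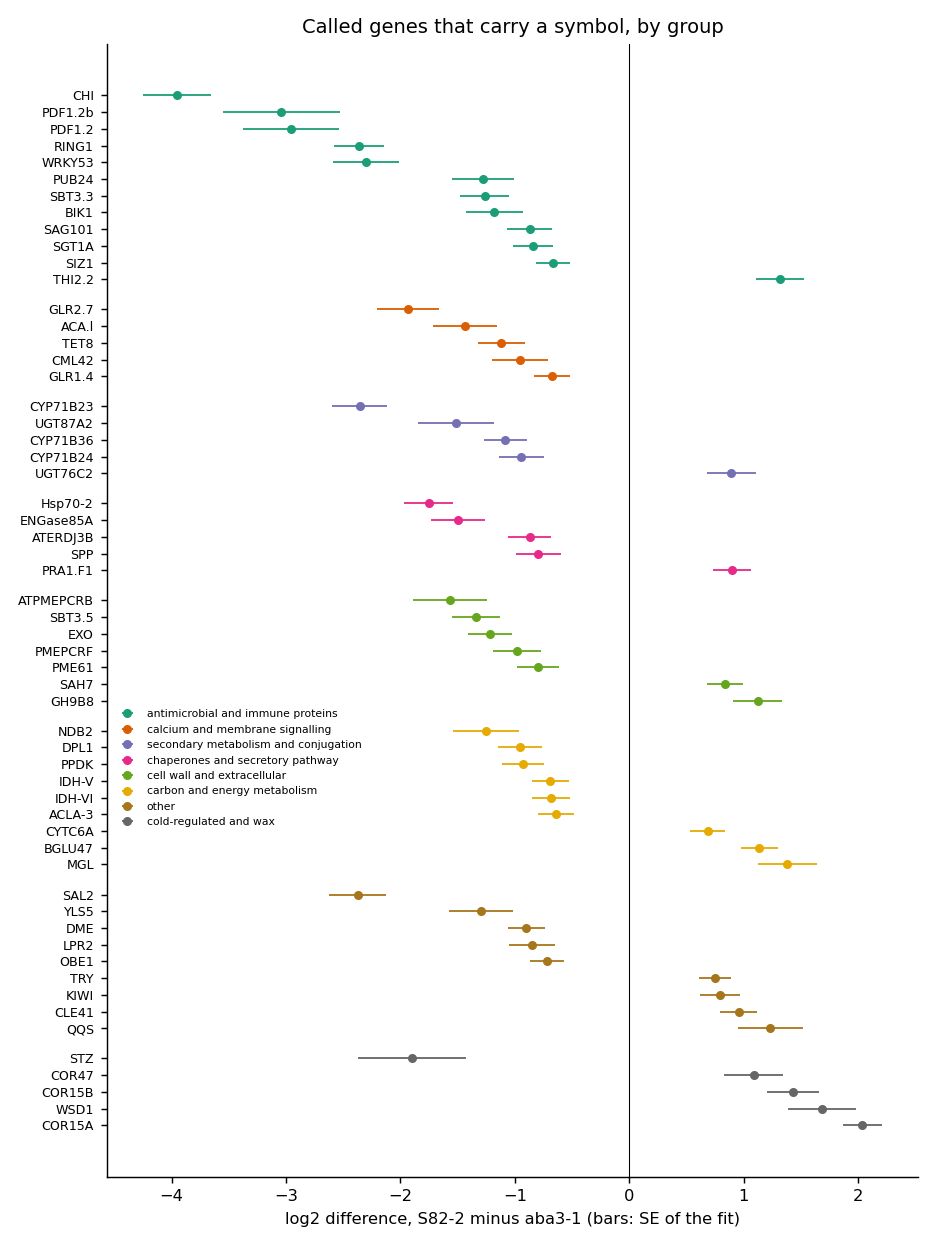
Log2 difference S82-2 minus aba3-1 (x axis) of the 57 called genes with a symbol (y axis), coloured by group, with bars for the SE of the fit. CHI lies farthest left, at -3.95, and COR15A farthest right, at 2.04, and 7 of the 8 groups hold genes on both sides of 0.

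Cold-regulated and wax genes gave 4 higher calls and 1 lower, STZ. COR15A (AT2G42540), a chloroplast protein that protects membranes during freezing, read 11.07 and 9.35 in S82-2, against 9.18 and 7.17 in aba3-1. The replicates of a group lay nearly 2 log2 units apart, but the difference was similar in both numbers, at 1.89 and 2.18, with a fitted 2.04 (SE 0.17, limma adjusted p = 0.000225). Wild type read 11.17 and 9.27, level with S82-2. COR15B (AT2G42530), its near copy, read 10.05 and 8.45 in S82-2, against 8.82 and 6.82 in aba3-1, a difference of 1.43 (SE 0.23). COR47 (AT1G20440), a dehydrin, read 9.32 and 7.89 in S82-2, against 7.79 and 7.25 in aba3-1, and its difference was 1.53 in replicate 1 and 0.64 in replicate 2. All 3 genes read higher in replicate 1 than in replicate 2 in both groups, and their adjusted p without the block was 0.854, 1.00 and 0.613.

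The ABA-responsive list holds 32 genes, of which 5 were tested, since few of the listed loci have a paired probe set. The 3 COR genes were higher and none was lower, with a list median of 1.09. Over all probe sets 1.57% were called higher and 4.29% lower. The other members were XERICO, a RING protein that raises ABA levels, with a difference of 0.59 (limma adjusted p = 0.193), and the linker histone HIS1-3 with 0.56 (limma adjusted p = 0.0858). HIS1-3 read 3.54 and 3.32 in S82-2 and 2.77 and 2.97 in aba3-1, all under the floor of 4. It passed the filter through S58-2, at 4.38 and 4.05. The cold list, which counts the same COR genes again, had 5 tested members, 3 higher and 1 lower, beside the same shares over all probe sets. The lower one was STZ (AT1G27730), a zinc finger repressor induced by many stresses, which read 2.76 and 4.51 in S82-2, against 5.32 and 5.75 in aba3-1. Its wt values of 2.67 and 5.37 differ more between replicates than the fitted difference of -1.90 (SE 0.48, limma adjusted p = 0.0445). The dehydrin LTI30 differed by 1.14 without being called (limma adjusted p = 0.133). None of the 30 listed genes of ABA metabolism and signalling had a probe set that could be tested.

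WSD1 (AT5G37300), which joins fatty alcohols and acids into wax esters of the cuticle, read 5.57 and 5.21 in S82-2, against 3.73 and 3.69 in aba3-1. It rose by 1.68 (SE 0.30, limma adjusted p = 0.00909) and read 5.92 and 4.52 in wt. THI2.2 (AT5G36910), an antimicrobial thionin, read 5.26 and 5.13 in S82-2, against 3.98 and 3.78 in aba3-1. It thus moved opposite to both defensins, which makes the list of jasmonate and ethylene genes 1 higher and 2 lower of 3 tested, from 24 listed. The salicylic acid list, with 33 genes, had 2 lower (WRKY53, SAG101) of 3 tested. The shares over all probe sets were 1.57% higher and 4.29% lower, and both lists are too short to read a result from. The third tested gene of the salicylic acid list, the glutaredoxin GRX480, differed by -0.53 (limma adjusted p = 0.319). It read 2.91 and 2.80 in S82-2 and 3.78 and 2.98 in aba3-1, all under the floor of 4. GRX480 passed the filter through S15-118, at 4.65 and 4.08, and S58-2, at 4.33 and 4.38.

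**Figure D4:**
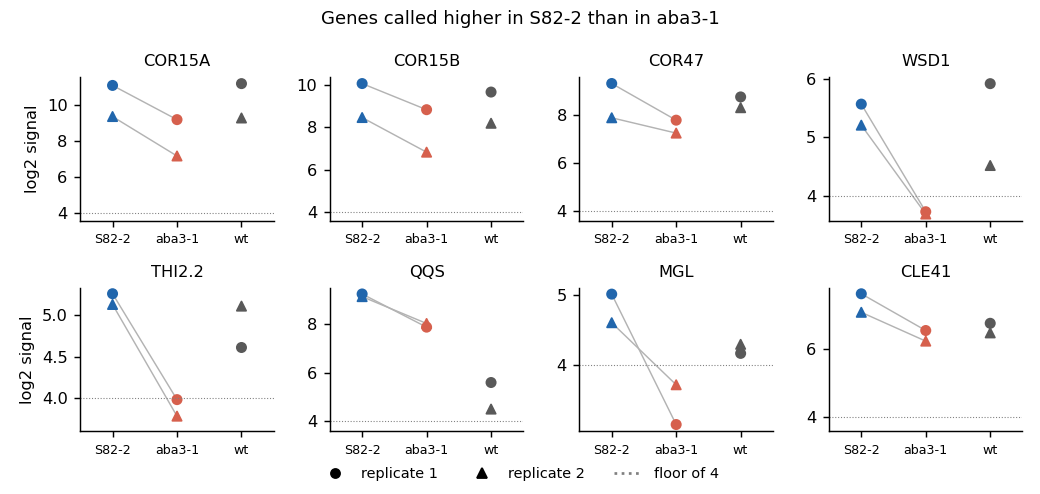
Log2 signal of 8 genes called higher in S82-2, by group on the x axis (S82-2, aba3-1, wt), with circles for replicate 1, triangles for replicate 2, grey lines joining S82-2 and aba3-1 of 1 number and a dotted line at the floor of 4. COR15A reads 11.07 and 9.35 in S82-2, 9.18 and 7.17 in aba3-1 and 11.17 and 9.27 in wt, while QQS is higher in S82-2 and aba3-1 than in wt.

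Outside the functional groups, QQS (AT3G30720), a short protein that influences the split of carbon and nitrogen between starch and protein, read 9.22 and 9.11 in S82-2, against 7.86 and 8.01 in aba3-1. In wt it was far lower, at 5.59 and 4.50. CLE41 (AT3G24770), the precursor of a peptide that keeps vascular stem cells undifferentiated, read 7.60 and 7.06 in S82-2, against 6.53 and 6.22 in aba3-1. TRY, a small MYB repressor of trichome formation, was higher by 0.75 (SE 0.14), and KIWI, a transcriptional coactivator, by 0.79 (SE 0.18). Those that fell include SAL2 (AT5G64000), of the family of inositol and nucleotide phosphatases, which read 2.96 and 2.82 in S82-2, against 5.45 and 5.08 in aba3-1. DME, the DNA glycosylase that removes methylated cytosine, fell by 0.90 (SE 0.16), and LPR2, a ferroxidase of the root response to low phosphate, by 0.85 (SE 0.20).

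Most called genes carry only a locus, and the tables give no function for them. The highest called difference of such a gene among those named was in AT2G30695, which read 5.94 and 5.47 in S82-2, against 3.37 and 3.76 in aba3-1 (difference 2.14, SE 0.26, limma adjusted p = 0.00127). On the lower side AT2G18690 read 4.34 and 4.66 in S82-2, against 7.82 and 7.60 in aba3-1 (difference -3.21, SE 0.28). AT5G18470, AT5G52760, AT1G35710 and AT1G57630 fell by 3.19, 2.98, 2.84 and 2.82. Genes that lie next to each other in the TAIR10.1 annotation formed 1535 neighbouring pairs with both genes tested, of which 5 had both called (0.326%). The share of 5.86% for single probe sets is not comparable with this share of pairs, and nothing is read from that count. The pairs with the same direction, 4 of the 5, are COR15B with COR15A, both higher, and AT4G38540 with AT4G38550, AT5G52740 with AT5G52750 and AT5G52750 with AT5G52760, all lower. AT5G52740, AT5G52750 and AT5G52760 thus form a run of 3 adjacent genes, with differences of -1.09, -2.39 and -2.98, and since neighbouring copies of a gene family can share probe signal they may not be independent measurements. AT1G72230 was higher and its neighbour AT1G72240 lower.

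Lists for the main functions of a leaf held no call, but beside 5.86% of all probe sets called, most of these lists are so short that they would hold few in any case. None of the 9 tested photosynthesis genes was called, and their median was 0.05. RCA, which activates Rubisco, read 12.88 and 13.21 in S82-2, against 13.08 and 13.36 in aba3-1 (difference -0.18, SE 0.21). PSAE-1 of photosystem I differed by 0.13 (SE 0.13). The chloroplast genome, a longer list, had 65 tested probe sets, with no call and a median of 0.08. Without the S58-2 arrays 2 of the 65 were called higher, beside 336 of all 11561. No gene was called among 5 flavonoid genes, 2 each for chlorophyll synthesis, the circadian clock and aliphatic glucosinolates, or 6 glutathione S-transferases. Single values in these lists were not small throughout, since AT4G14090, the anthocyanin glucosyltransferase UGT75C1, differed by 1.33 (limma adjusted p = 0.148) and DFR of anthocyanin synthesis by 0.84 (limma adjusted p = 0.157). PYK10, a beta-glucosidase abundant in roots and used here as a root marker, read 6.07 and 6.74 in S82-2, against 5.63 and 5.44 in aba3-1, without being called (limma adjusted p = 0.232). The other root marker, EXPA7, stayed near 2 on all 4 arrays. The part of root tissue in the results was not tested.

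The size of the changes differed between the replicate numbers. The difference S82-2 minus aba3-1 had an SD over probe sets of 0.561 in replicate 1 and 0.447 in replicate 2, and 578 probe sets were lower by at least 1 in replicate 1, against 313 in replicate 2. Across probe sets the differences of the 2 numbers, which share no array, correlated with r = 0.738, as a description, since probe sets are not independent. For the 496 lower calls the median was -1.5 in replicate 1 and -1.03 in replicate 2, and for the 181 higher calls 0.96 and 0.84. Of all 677 calls, 47 had differences that lay at least 1 apart between the numbers. ENGase85A, with -2.01 and -0.98, is one of these, as is PUB24 with -1.83 and -0.73.

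Because the numbers share no array, probe sets chosen in 1 number can be read in the other. The labels do not state whether the numbers come from separate plants. Agreement between them thus describes these arrays and does not replicate an effect of the line. The 578 probe sets lower by at least 1 in replicate 1 had a median of -0.94 in replicate 2. Of them 556 (96.2%) were lower there, beside 48.0% of all probe sets tested. The 313 chosen in replicate 2 had a median of -1.90 in replicate 1, with 307 (98.1%) lower, beside 48.6% of all probe sets tested. For those higher by at least 1, the 140 chosen in replicate 1 had a median of 0.77 in replicate 2 (97.1% higher), and the 89 chosen in replicate 2 a median of 0.90 in replicate 1 (96.6% higher). The same probe sets read in the other groups, as differences from the same aba3-1 array, lay closer to aba3-1 by their medians in each group. For the lower choice in replicate 1, S14-150 had a median of -0.30, while that of S15-118 was 0.23, that of S58-2 was 0.79 and that of wt was -0.80. For the lower choice in replicate 2, S14-150 had -0.87 and S15-118 had 0.10, beside -0.02 for S58-2 and -1.56 for wt. The choice rested on S82-2 minus aba3-1, which favours S82-2 as the group farthest from aba3-1. The order of S82-2 against the other groups is thus not read as a result. For these lower choices, wt lay farthest below aba3-1 and S14-150 next, while S15-118 and S58-2 lay close to or above aba3-1. For the higher choices the medians of the 3 other lines lay between -0.16 and 0.12, those of wt at 0.58 and 0.54.

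**Figure D5:**
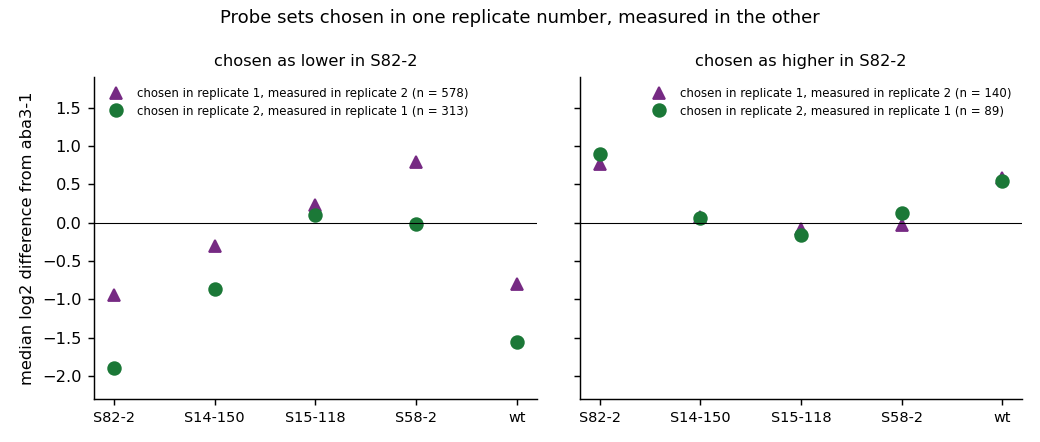
Median log2 difference from aba3-1 (y axis) of S82-2, the 3 other lines and wt (x axis), for probe sets that differed by at least 1 between S82-2 and aba3-1 in 1 replicate number and were measured in the other, with triangles for values in replicate 2 and circles for values in replicate 1. Probe sets chosen as lower (left) read -0.94 and -1.90 in S82-2 and -0.80 and -1.56 in wt, and those chosen as higher (right) read 0.77 and 0.90 in S82-2.

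Whether S82-2 differs from the other lines was tested directly, against the mean of S14-150, S15-118 and S58-2 and without the aba3-1 arrays in the contrast. The labels do not state whether these lines, S58-2 among them, are suppressors. CHI, WRKY53, RING1 and PDF1.2 were lower, and COR15A and COR15B higher, in S82-2 than in that mean. These genes were picked by their difference from aba3-1 on the same S82-2 arrays, so their values here are not independent of that choice. Without the block the limma adjusted p was 0.493 for COR15A, 0.728 for COR15B and 0.12 for PDF1.2. For CHI, WRKY53 and RING1 it was 0.0147, 0.0040 and 0.0021. Of all tested, 13.1% were called (1517 probe sets), which S82-2 had higher in 691 cases (5.98%) and lower in 826 (7.14%). CHI read 6.13 and 5.62 for S14-150, 8.80 and 7.61 for S15-118 and 9.68 and 9.39 for S58-2, all above S82-2, and the difference from their mean was -4.03 (SE 0.24, limma adjusted p = 2.3e-05). WRKY53 differed from that mean by -2.67 (SE 0.24, limma adjusted p = 0.000113), and RING1 by -2.33 (SE 0.18, limma adjusted p = 5.4e-05). PDF1.2 separated the lines less, with 7.05 and 5.82 for S14-150, 6.43 and 5.98 for S15-118 and 4.92 and 5.85 for S58-2 (difference -1.48, limma adjusted p = 0.0189). COR15A was higher in S82-2 than in the mean of the other lines by 1.94 (SE 0.14, limma adjusted p = 3.2e-05) and COR15B by 1.37 (SE 0.19).

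Some genes called against aba3-1 did not pass against the other lines. AT2G30695 differed by 0.37 (limma adjusted p = 0.282), THI2.2 by 0.29 (limma adjusted p = 0.323), SIZ1 by -0.27 (limma adjusted p = 0.186) and QQS by 0.72 (limma adjusted p = 0.0713). AT2G21640, listed for oxidative stress, showed the opposite pattern. It read 4.52 and 3.39 in S82-2 and 3.99 and 3.69 in aba3-1 (limma adjusted p = 0.871), but differed by -2.55 from the mean of the other lines (limma adjusted p = 9.6e-05). Those lines were not alike, with 7.42 and 7.44 in S14-150, 7.54 and 6.69 in S15-118 and only 4.97 and 4.94 in S58-2. The count of 1517 became 231 without the block (2.0%), 391 without S82-2 replicate 1, 581 without S82-2 replicate 2 and 2510 without S58-2 replicate 1.

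Against wt, S82-2 gave 54 calls (0.467%), 16 higher (0.138%) and 38 lower (0.329%), while aba3-1 against wt gave 576 (4.98%), 378 higher (3.27%) and 198 lower (1.71%). These comparisons share arrays with that of S82-2 and aba3-1, so their values are only set side by side. CHI differed from wt by 0.18 in S82-2 (limma adjusted p = 0.872) and by 4.13 in aba3-1 (limma adjusted p = 0.000226). WRKY53 differed from wt by -0.29 in S82-2 and by 2.02 in aba3-1, and PDF1.2 by -0.18 and 2.78. COR15A differed from wt by -0.01 in S82-2 (limma adjusted p = 0.993) and by -2.05 in aba3-1 (limma adjusted p = 0.000368), and WSD1 by 0.17 and -1.51. For these genes S82-2 thus read near wt, although a p above the threshold does not show that they are equal.

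QQS and KIWI, of the 57 genes with a symbol, were also called between S82-2 and wt. QQS lay 4.12 (SE 0.28) above wt in S82-2 (limma adjusted p = 0.000461) and 2.89 above wt in aba3-1 (limma adjusted p = 0.000680). KIWI differed from wt by 1.02 in S82-2 (limma adjusted p = 0.0489) and by 0.23 in aba3-1. AT3G05640 read 7.11 and 5.68 in S82-2, 5.34 and 4.29 in aba3-1 and 5.97 and 4.07 in wt, and in both numbers S82-2 lay above each of the other 5 groups by at least 1.14. AT1G35710 read 5.62 and 4.27 in S82-2, 8.54 and 7.03 in aba3-1 and 6.75 and 5.27 in wt, below each of the other groups by at least 1.00. Both counts were unstable: without the block 1 probe set was called in S82-2 against wt (0.00865%) and 52 in aba3-1 against wt (0.45%). Leaving out an array gave 6 calls without wt replicate 1, 3 without wt replicate 2, 2 without S82-2 replicate 1 and 1 without S82-2 replicate 2 for S82-2 against wt. For aba3-1 against wt it gave 279 without wt replicate 1, 193 without wt replicate 2, 80 without aba3-1 replicate 1 and 328 without aba3-1 replicate 2.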

How the data were processed

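Signals of 12 Affymetrix ATH1 arrays (6 groups of 2) were used as deposited by the authors, as log2 values, and the submitters' processing notes name GCRMA. The version is not given in the sources used here, and the log base, which the table does not state, was taken as 2. Of 22810 probe sets, 64 controls were left out, and 11561 above 4 in at least 2 of the 12 arrays were tested. Group means with the replicate number as an additive block were fitted over all 12 arrays with limma 3.58.1 in R 4.3.3 (5 residual degrees of freedom), with Benjamini-Hochberg adjustment over all 11561, and the fit was tested on simulated data. The block was used because the comparison is made within replicate numbers, which are printed in the labels. Deviations from group means correlated between equal numbers in all 15 pairs of groups (r from 0.708 to 0.872), and the first principal component, with 52.6% of the variance, separated the numbers. No arrays were identical. The number of arrays limits the precision.

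Genes were named from the platform annotation and the RefSeq gene table (TAIR10.1, used for names and neighbours only), where 13513 probe sets have 1 gene, 503 have several and 8730 have no gene. Locus lists, and lists found by searching gene symbols and synonyms, were described by their counts and medians. The genes named were, among probe sets of 1 gene that were called with the same sign in both numbers and above 4 on every array of the higher group, up to 15 in each direction ranked by the smaller of the differences in the 2 numbers, and up to 3 called members of each list per direction, or up to 2 of the highest mean where a locus list had none. Other genes with a symbol, further list members and genes apart from all groups were named after their values were seen. The comparison, the members and the lists were chosen with earlier results of these data known. The pattern for thionins was limited to whole words after it had matched methionine. Planned promoter motif searches were not run, since no sequences were used here. Alternatives were the fit without the block, other floors and scalings, fewer arrays and each array left out.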

Additional observations from a re-analysis of the deposited data

Results flagged for a closer look

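The difference of S82-2 from aba3-1 was not the same as the mean difference of the other lines. Because the aba3-1 arrays cancel, the contrast of S82-2 with the mean of S14-150, S15-118 and S58-2 tests this directly, and limma called 1517 of 11561 probe sets at an adjusted p under 0.05, with 691 higher and 826 lower in S82-2. CHI, at 4.68 and 3.01 in S82-2, lay between 5.62 and 9.68 on the 6 arrays of the other lines. AT2G21640 was called in that contrast (-2.55, limma adjusted p = 9.6e-05) while S82-2 and aba3-1 differed by 0.12 (SE 0.27). It was high in S14-150 (7.42 and 7.44) and S15-118 (7.54 and 6.69), less so in S58-2 (4.97 and 4.94).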

How the results depend on the processing

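The 677 probe sets called between S82-2 and aba3-1 kept their sign under every setting with the block in which they were tested (406 with the floor at 6). A change of filter, of minimum difference or of whole groups leaves the fitted difference as it is, so there the sign could not change. Only the scalings and the left-out arrays could change it. The replicate block changed the counts most. With no replicate block the calls were 58 (S82-2 minus aba3-1), 231 (S82-2 minus the mean of the other lines), 1 (S82-2 minus wt) and 52 (aba3-1 minus wt), against 677, 1517, 54 and 576. Without a filter on low values they were 207, 984, 17 and 150, with more probe sets in the adjustment. The fit of the 4 arrays alone with the replicate block called 232, and a minimum difference of 1 left 409. Leaving out each array in turn gave 125 to 420, 391 to 2510, 1 to 6 and 80 to 328 calls. Among settings chosen after seeing the data, leaving out an array with no replicate block gave 0 to 30, 17 to 294, 0 to 2 and 1 to 3 calls. Leaving out the S58-2 arrays, planned for S82-2 minus aba3-1, gave 1001 there (336 higher, 665 lower). For the others it gave 85 (S82-2 minus wt) and 954 (aba3-1 minus wt), and with no replicate block 85 (S82-2 minus aba3-1). At an unadjusted p under 0.05, S82-2 minus aba3-1 gave 2254 probe sets with the block and 885 without it. Of the 46 named genes that were called, 11 kept their call with no replicate block, 46 without the S58-2 arrays and 45 after quantile normalization, and 18 to 32 when an S82-2 or aba3-1 array was left out. Signals near the floor limit the fold of low genes: 188 of the 496 lower calls had an S82-2 mean under 4, and 42 of the 181 higher calls an aba3-1 mean under 4. Apart from what is said above, the cause of these shifts was not tested.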
